A study of Homo sapiens with 9 samples.

Results

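Chromosome 8q24 from 120 to 140 Mb (GRCh38) is a 20 Mb stretch that holds MYC, the long non-coding RNA gene PVT1 and 57 protein-coding genes in all. Its accessible regions were taken from 3 deposited lists, 1 per group, by the midpoint of each region, leaving out any that spanned over 20 kb or had a second authors' value below 0. This gave 1738 of 122456 regions with shCHD4#1, 1299 of 82824 with shCHD4#2 and 1615 of 85359 with shScramble. The segment was chosen by its share of control places lost with both hairpins, measured on these lists in bins of 10 Mb, so that share is given as a description and without a test. The assay was ATAC-seq, which reads out open DNA by the insertions of the Tn5 transposase, in SKNMC cells, an established Ewing sarcoma line labelled wildtype in genotype. The shCHD4#1 and shCHD4#2 cells carried inducible hairpins that target CHD4, which encodes the motor of the nucleosome remodeller NuRD, and the shScramble cells a scrambled control hairpin. All 3 groups received 100 ng/ml doxycycline, which switches the hairpin on, all are labelled 48 h, and each had 3 biological replicates, 9 samples in all. Each of the 3 lists was filed under the first replicate of its group and was treated as the combined list of the group, an inference that no header states. As each group has 1 list, no difference between groups could be tested, and read depth was unknown. Both hairpins were set against the same shScramble list. In bulk cells, a region open in fewer cells and a region less open in each cell cannot be told apart.

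MYC encodes a transcription factor that drives growth and division, and it lies in a wide stretch with few other protein-coding genes, whose enhancers can act over long distances in a way that depends on the cell type. PVT1, its neighbour, is a long non-coding RNA gene that hosts microRNAs, and its promoter is known to compete with that of MYC for enhancers in some cells. The 8q24 arm is often gained in cancer, and gain of chromosome 8 is a common additional change in Ewing sarcoma. Region lists hold no measure of copy number.

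The order and the pieces of the lists bear on every count below. The lists were sorted by the authors' p-value, but regions tied at a single p near the end of each list were wide and had high second values. Of the segment's regions, 161 (9.26%) with shCHD4#1, 113 (8.70%) with shCHD4#2 and 183 (11.3%) with shScramble were in that tied block, and their median second value was 955 with shCHD4#1, 826 with shCHD4#2 and 729 with shScramble. The other regions of the segment had median second values of 231 with shCHD4#1, 196 with shCHD4#2 and 164 with shScramble. Positions are by p unless the second value is named, and the order of the groups can differ between them. Neighbouring regions also shared 1 second value in many cases, as pieces of one longer stretch would: within 1 kb of each other, 44.2% of the segment's regions with shCHD4#1, 44.3% with shCHD4#2 and 43.6% with shScramble did so. Joining them left 1324 stretches with shCHD4#1, 994 with shCHD4#2 and 1233 with shScramble. As a check of the labelled cell type, at least 1 end was covered in each list for 7 of 8 known activated targets of the EWSR1::FLI1 fusion oncoprotein, CD99 having no listed region. Of 8 marker genes of blood, endothelium, liver and epithelium, 4 had a covered end with shCHD4#1, 3 with shCHD4#2 and 4 with shScramble, and ALB and KRT5 had no region in any list. Of all 19974 protein-coding genes, 14192 had a covered end with shCHD4#1, 13284 with shCHD4#2 and 12552 with shScramble. As most genes had one, these counts are a weak check of cell type. The part of other cells in the counts was not tested.

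The segment was among the most densely listed parts of the genome in all 3 lists, and its regions were wide. It held 86.9 regions per Mb with shCHD4#1, 64.95 with shCHD4#2 and 80.75 with shScramble. Among windows of 20 Mb it came 5th of 161 by number with shCHD4#1, 5th of 161 with shCHD4#2 and 2nd of 162 with shScramble. It came first by bases covered in every list. Regions covered 22.9% of its bases with shCHD4#1, 13.9% with shCHD4#2 and 19.8% with shScramble. The median region was 2160 bp wide with shCHD4#1, 1825 bp with shCHD4#2 and 2060 bp with shScramble, against 1380 bp with shCHD4#1, 1030 bp with shCHD4#2 and 1440 bp with shScramble in the rest of the genome. No other window with at least 300 regions had a median as wide, the next being 1740 bp with shCHD4#1, 1280 bp with shCHD4#2 and 1760 bp with shScramble.

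In the full lists, one hairpin listed more regions of the segment than the control and the other fewer. Relative to shScramble, region number was 1.08 times as high with shCHD4#1 and 0.804 times as high with shCHD4#2. In the rest of the genome these ratios were 1.44 with shCHD4#1 and 0.974 with shCHD4#2, so the segment's ratio was the lower of the pair for each hairpin. These ratios are a description too, as the segment was chosen by its lost share on the same lists. Restricted to an authors' p of at most 0.05, the segment had 320 regions with shCHD4#1, 173 with shCHD4#2 and 204 with shScramble. At that threshold the shCHD4#1 ratio was 1.57 in the segment, above its 1.36 elsewhere, while the shCHD4#2 ratio of 0.848 was below its 1.02 elsewhere. The segment had 275 places with a single region per list, where the median width was 2420 bp with shCHD4#1, 1860 bp with shCHD4#2 and 2130 bp with shScramble. The region was wider than the shScramble one at 58.9% of these places with shCHD4#1 and at 34.2% with shCHD4#2, against 47.6% with shCHD4#1 and 23.4% with shCHD4#2 in the rest of the genome. More bases were thus covered with shCHD4#1 and fewer with shCHD4#2 than with shScramble. The direction for shCHD4#1 turned when each list was limited to the length of the shortest: the segment then held 1109 regions with shCHD4#1, 1299 with shCHD4#2 and 1432 with shScramble. That cut was made by p. It left out all of the segment's tied block with shCHD4#1 (161 regions) and with shScramble (183), but none of the 113 with shCHD4#2.

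**Figure D1:**
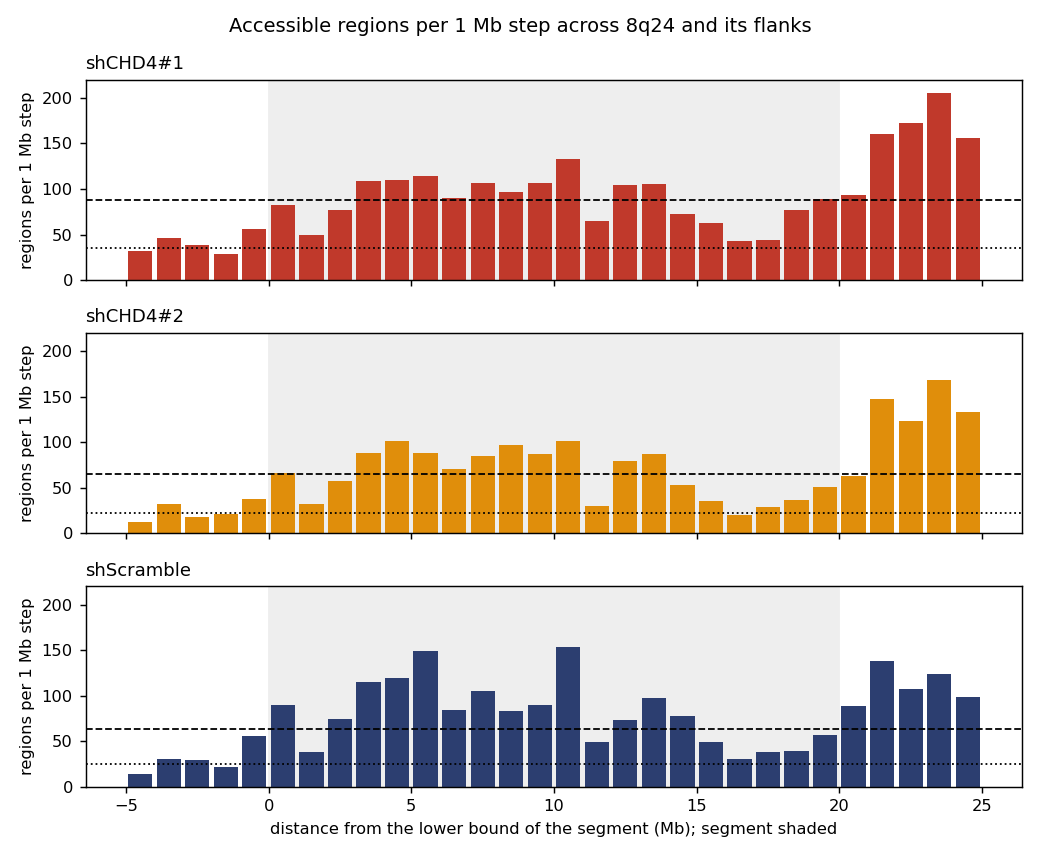
Number of accessible regions in each 1 Mb step, from 5 Mb below to 5 Mb above the segment (shaded), with shCHD4#1 on top, then shCHD4#2 and shScramble. The dotted and dashed lines mark the median and the 90th percentile of all 1 Mb steps of the genome with a region in that list, and of the segment's 20 steps 11 lie above the dashed line with shCHD4#1, 11 with shCHD4#2 and 13 with shScramble.

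Along the segment, regions were densest between 123 and 131 Mb and sparse around 136 Mb. Per 1 Mb step the median was 89.5 regions with shCHD4#1, 68.5 with shCHD4#2 and 80.5 with shScramble, against 35 with shCHD4#1, 22 with shCHD4#2 and 25 with shScramble over the genome. The 3 steps with the most shScramble regions started at 130 Mb (133 with shCHD4#1, 102 with shCHD4#2 and 154 with shScramble), at 125 Mb (114 with shCHD4#1, 88 with shCHD4#2 and 149 with shScramble) and at 124 Mb (110 with shCHD4#1, 102 with shCHD4#2 and 120 with shScramble). The first of these holds ASAP1, the second WASHC5, NSMCE2 and TRIB1, and the last TMEM65, RNF139 and MTSS1. The lowest was the step at 136 Mb, which holds no protein-coding gene, with 43 regions with shCHD4#1, 20 with shCHD4#2 and 31 with shScramble. The steps at 121 and 137 Mb followed, each with 38 regions with shScramble.

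The last step outside the lower bound, at 119 Mb, had 56 regions with shCHD4#1, 38 with shCHD4#2 and 56 with shScramble, and the first step inside, at 120 Mb, had 82 with shCHD4#1, 66 with shCHD4#2 and 90 with shScramble. The last step inside the upper bound, at 139 Mb, had 89 with shCHD4#1, 51 with shCHD4#2 and 57 with shScramble, and the first step outside, at 140 Mb, had 93 with shCHD4#1, 63 with shCHD4#2 and 89 with shScramble. The upper bound does not mark the end of the dense stretch, as the plot of regions per step shows: in the 5 Mb above it the density was 157.4 regions per Mb with shCHD4#1, 127 with shCHD4#2 and 111.4 with shScramble.

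In 6 of the 20 steps both hairpins listed fewer regions than shScramble, against 3.13% of 1150 steps of the genome with at least 30 shScramble regions. Those 6 are 6 of the 36 such steps in the whole genome. As the segment was chosen by places lost on these same lists, its counts of steps with fewer or more regions are a description. The reverse, more regions with both, was found in 2 steps of the segment, against 41.7% of the steps of the genome. They were the step at 128 Mb (97 regions with shCHD4#1, 97 with shCHD4#2 and 83 with shScramble), which holds the upper end of PVT1 and LINC00824, and the step at 132 Mb (104 with shCHD4#1, 80 with shCHD4#2 and 73 with shScramble), which holds KCNQ3. In these 2 steps the bases covered were lower with shCHD4#2 than with shScramble. At 128 Mb 29.7% of bases were covered with shCHD4#1, 20.7% with shCHD4#2 and 24.6% with shScramble. At 132 Mb 25.4% were covered with shCHD4#1, 17.0% with shCHD4#2 and 17.5% with shScramble. With shCHD4#2 the number of regions was below that of shScramble in 18 of the 20 steps. With shCHD4#1 the number was lower in 6 steps and higher in 14, the ratio to shScramble running from 0.765 at 125 Mb to 1.97 at 138 Mb.

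MYC (chromosome 8, 127735434 to 127742951, GRCh38) was covered along most of its length in every list, 97.1% of its bases with shCHD4#1, 98.3% with shCHD4#2 and 93.6% with shScramble. With 5 kb on both sides it had 2 regions with shCHD4#1, 3 with shCHD4#2 and 2 with shScramble, which merged into 1 place present in all 3 lists. Together they spanned 12.3 kb with shCHD4#1, 11.8 kb with shCHD4#2 and 11.7 kb with shScramble, and both gene ends were covered in each list. Within a list these regions shared 1 second value, so they form 1 stretch. By that value the widest MYC region came 127th with shCHD4#1, 113th with shCHD4#2 and 9th with shScramble. By p the same region came 91414th with shCHD4#1, 82358th with shCHD4#2 and 84765th with shScramble, far down the lists. Presence and width at MYC did not separate the groups.

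The flanks of MYC differed in density. Within 500 kb below the gene there were 40 regions with shCHD4#1, 25 with shCHD4#2 and 41 with shScramble, and within 500 kb above it, on the PVT1 side, 70 with shCHD4#1, 74 with shCHD4#2 and 66 with shScramble. The side of PVT1 was thus the denser one in every list, and the lists differed most on the lower side, with shCHD4#2 lowest. Within 250 kb there were 21 with shCHD4#1, 15 with shCHD4#2 and 26 with shScramble below MYC, and 41 with shCHD4#1, 42 with shCHD4#2 and 41 with shScramble above it. Above MYC the direction depended on the distance: within 100 kb there were 14 with shCHD4#1, 15 with shCHD4#2 and 18 with shScramble, and within 2000 kb 219 with shCHD4#1, 199 with shCHD4#2 and 189 with shScramble.

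**Figure D2:**
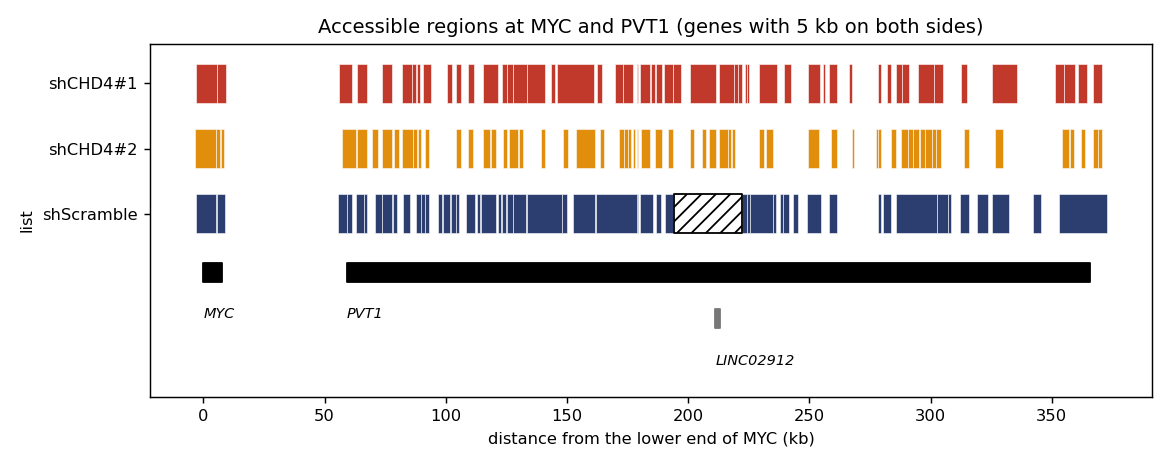
Map of the accessible regions at MYC and PVT1, in kb from the lower end of MYC, for shCHD4#1 (top row), shCHD4#2 and shScramble; black bars are the genes, the grey bar is LINC02912, and the hatched box is the 28.2 kb shScramble region left out by the width limit. All 3 rows are filled along MYC apart from a short gap, PVT1 is filled less in the shCHD4#2 row (41.3% of bases, with 5 kb on both sides, against 58.6% with shCHD4#1 and 63.7% with shScramble), and the hatched box lies over a stretch of PVT1 where both hairpin rows have regions and the shScramble row has none.

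PVT1 (127794524 to 128101256) was one of the most densely listed long genes. With 5 kb on both sides it had 50 regions with shCHD4#1, 56 with shCHD4#2 and 49 with shScramble. Per 100 kb that was 15.8 with shCHD4#1, 17.7 with shCHD4#2 and 15.5 with shScramble. Among 4392 genes of at least 100 kb it came 69th with shCHD4#1, 7th with shCHD4#2 and 9th with shScramble, where the median gene had 3.50 with shCHD4#1, 2.17 with shCHD4#2 and 2.50 with shScramble. The shCHD4#2 list held the most regions here and the fewest bases: 185.5 kb was covered with shCHD4#1, 130.8 kb with shCHD4#2 and 201.7 kb with shScramble.

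Of the 45 places at PVT1, 23 were in all 3 lists, 8 were lost with both hairpins and 2 were gained with both. Some lost places shared their second value with a neighbouring shScramble region, as pieces of one stretch would. At 127848451 to 127849750, 127856871 to 127858400 and 128042801 to 128043810 the neighbour was in a place of all 3 lists. At 127973241 to 127974570 it was in a place kept with shCHD4#1 only. The other lost places shared no value with a neighbour. The 2 gained places (127936061 to 127947050 and 127948271 to 127956001) lie at LINC02912, a non-coding RNA gene within PVT1. They are not gains in the data: an shScramble region of 28.2 kb (127929391 to 127957610), left out for its width, spans both. With it, PVT1 had 50 regions with shCHD4#1, 56 with shCHD4#2 and 50 with shScramble, and 230.0 kb was covered with shScramble. Within its first 50 kb, 49.9% of bases were covered with shCHD4#1, 55.4% with shCHD4#2 and 62.6% with shScramble, and within the next 50 kb 81.0% with shCHD4#1, 46.6% with shCHD4#2 and 89.3% with shScramble. 

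Single regions of PVT1 ranked among the first of their lists by p, but not the same one in each list. The first region of the whole shScramble list lies inside PVT1 (127887961 to 127896800), 145010 bp above MYC. At the same place the best shCHD4#2 region came 1029th by p and 20th by the second value, by which the shScramble place came 27th. The shCHD4#1 region there was 15001 bp wide and came 121779th by p, within the tied block, but 7th by the second value. Another region of PVT1 (127809081 to 127813190 in the shCHD4#2 list), 66130 bp from MYC, came 10th with shCHD4#1, 4th with shCHD4#2 and 1539th with shScramble. By the second value its position was 115th with shCHD4#1, 34th with shCHD4#2 and 10th with shScramble. Just past the upper end of PVT1, a region (128107711 to 128112280 in the shCHD4#2 list) came 6th with shCHD4#1, 3rd with shCHD4#2 and 70th with shScramble. Its position by the second value was 53rd with shCHD4#1, 23rd with shCHD4#2 and 179th with shScramble. The order of the groups thus depended on the measure at both places inside PVT1 and was the same by both measures at the place past its end.

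The other genes around MYC, up to 130 Mb, are mostly non-coding. LOC105375751, a long non-coding RNA gene that begins at LRATD2, had 42 regions with shCHD4#1, 29 with shCHD4#2 and 46 with shScramble. Toward MYC, CASC8 had 17 with shCHD4#1, 8 with shCHD4#2 and 11 with shScramble, and CASC21 had 14 with shCHD4#1, 8 with shCHD4#2 and 10 with shScramble. These are non-coding RNA genes in the stretch that carries cancer-risk variants of several tissues. Within this stretch PRNCR1 had 3 regions with shCHD4#1, 1 with shCHD4#2 and 0 with shScramble. POU5F1B, a protein-coding retrocopy of the pluripotency gene POU5F1, had 1 region with shCHD4#1 and none in the other 2 lists. Above PVT1, LINC00824 had 19 with shCHD4#1, 14 with shCHD4#2 and 13 with shScramble, and CCDC26 had 27 with shCHD4#1, 24 with shCHD4#2 and 26 with shScramble. GSDMC, which encodes a pore-forming gasdermin, had 8 with shCHD4#1, 10 with shCHD4#2 and 7 with shScramble. LRATD2 had 5 with shCHD4#1, 2 with shCHD4#2 and 2 with shScramble. Of 110 long non-coding RNA genes of the segment, 23 (20.9%) had fewer regions with both hairpins, against 8.98% of all 18177 such genes, and 19 (17.3%) had more, against 16.5% of all. Because the lost share chose the segment, these shares are a description.

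By the second value, the first region of both hairpin lists was at TRIB1, which encodes a pseudokinase that directs C/EBPα to degradation. The value there was 14721 with shCHD4#1, 13790 with shCHD4#2 and 8775 with shScramble, where it came 4th. The values of different lists share no stated unit, so only the positions can be compared. In each list the value was carried by at least 2 adjoining regions (125423021 to 125436590 with shCHD4#1, 125423931 to 125439310 with shCHD4#2 and 125425721 to 125430710 with shScramble). The bases covered at TRIB1 with 5 kb on both sides were 11.2 kb with shCHD4#1, 14.0 kb with shCHD4#2 and 10.4 kb with shScramble. TRIB1 lies in the middle of the step at 125 Mb, whose share of lost places was one of the higher ones, and itself lost none.

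Many of the best regions of the genome lay in the segment. It held 12 of the best 20 regions by p with shCHD4#1, 5 with shCHD4#2 and 3 with shScramble, while it holds 1.42% with shCHD4#1, 1.57% with shCHD4#2 and 1.89% with shScramble of all regions. By the second value the numbers were 10 with shCHD4#1, 15 with shCHD4#2 and 12 with shScramble. Among the best 1000 the segment held 82 with shCHD4#1, 33 with shCHD4#2 and 43 with shScramble by p, and 142 with shCHD4#1, 66 with shCHD4#2 and 88 with shScramble by the second value. The number was thus higher with shCHD4#1 than with shScramble by both measures among the best 1000, but by p alone among the best 20. The first shCHD4#1 region covers an end of RNF139 (124469841 to 124478300), which encodes a ubiquitin ligase of the endoplasmic reticulum membrane; the region there came 122nd with shCHD4#2 and 227th with shScramble. Ordered by the second value the groups stood the other way, 23rd with shCHD4#1, 18th with shCHD4#2 and 17th with shScramble. The next 4 shCHD4#1 regions of the segment lie 17947 bp from ZFAT, 2803 bp from LRATD2, in CASC21 and 62903 bp from LRATD2. The first shCHD4#2 region (122637724 to 122642268) lies 138111 bp from ZHX2, which encodes a zinc-finger homeobox repressor, and came 23rd with shCHD4#1 and 5th with shScramble, but 11th with shCHD4#1, 13th with shCHD4#2 and 53rd with shScramble by the second value. It is the one region among those named here that was within the best 50 of all 3 lists by p. A region in ATAD2 (123393069 to 123397428 in the shCHD4#2 list) came 150th with shCHD4#1, 8th with shCHD4#2 and 28th with shScramble by p, and in the same order of groups by the second value. One in CYRIB (129936631 to 129941250) came 26th with shCHD4#1, 19th with shCHD4#2 and 1570th with shScramble by p. By the second value it came 229th with shCHD4#1, 110th with shCHD4#2 and 624th with shScramble. The second shScramble region (129448611 to 129452620), in CCDC26, came 25th with shCHD4#2, and the 19199 bp shCHD4#1 region there came 121800th, within the tied block. Ordered by the second value, that place came 25th with shCHD4#1 and 41st with shScramble.

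Merging regions that share at least 1 bp gave 1915 places in the segment. Of these, 651 (34.0%, Wilson 31.9 to 36.1) were in all 3 lists. The 95% Wilson intervals cover counting error only and treat neighbouring places as independent. Of the 1276 places with a shScramble region, 324 (25.4%, Wilson 23.1 to 27.9) were lost with both hairpins. The share over the whole genome was 19.1%, and the contrast is the one that chose the segment. It was 20.6% on the rest of chromosome 8. Absent with shCHD4#1 were 30.2% of the control places (23.9% over the genome), and absent with shCHD4#2 were 44.2% (35.6% over the genome). Gained with both were 113 places (5.90%, Wilson 4.93 to 7.05), against 10.1% over the genome. A further 410 places were listed with shCHD4#1 only, 116 with shCHD4#2 only, 240 were absent with shCHD4#2 only and 61 absent with shCHD4#1 only. Of the 116 places listed with shCHD4#2 only, 6 lie under wide regions of both other lists that the width limit left out (126371481 to 126396380 with shScramble).

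**Figure D3:**
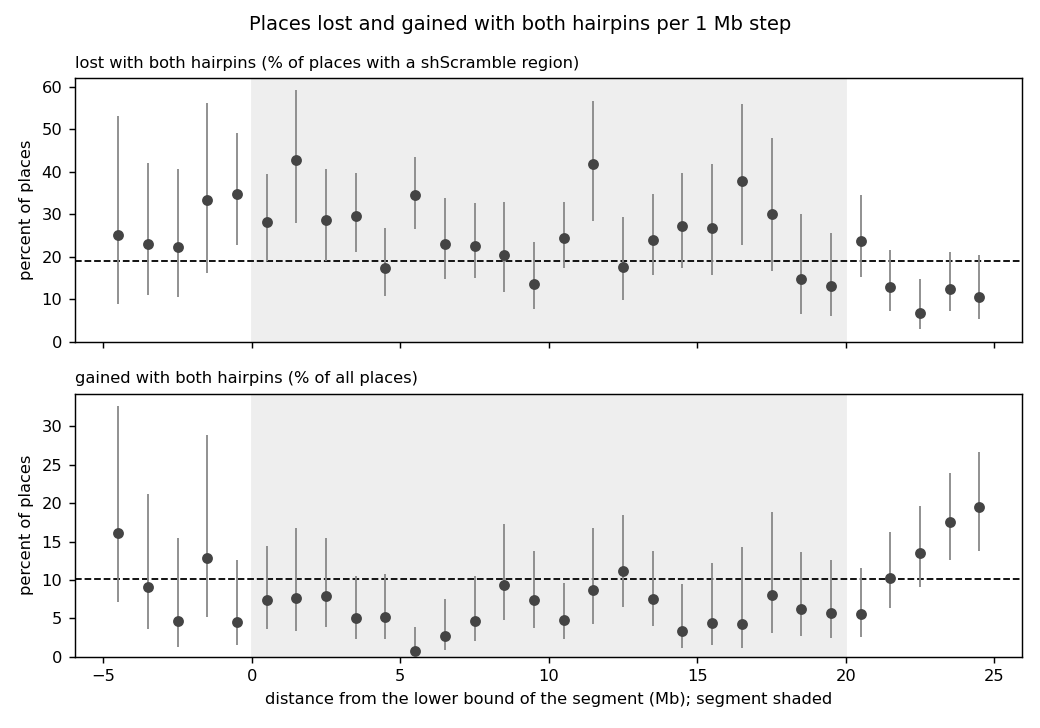
Share of places lost with both hairpins (top, of places with a shScramble region) and gained with both (bottom, of all places) in each 1 Mb step, with 95% Wilson intervals; the segment is shaded and the dashed line is the rest of the genome. The lost share is highest in the steps at 121, 131 and 136 Mb and lowest at 139, 129 and 138 Mb, and the gained share falls to 0.709% at 125 Mb.

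The lost share varied along the segment, with high and low steps on both sides of MYC. By step it was highest at 121 Mb (42.9%, 15 of 35 places), 131 Mb (41.9%, 18 of 43) and 136 Mb (37.9%, 11 of 29), and lowest at 139 Mb (13.0%, 6 of 46), 129 Mb (13.7%, 10 of 73) and 138 Mb (14.7%, 5 of 34). With so few places per step the intervals are wide, as the plot of shares by step shows. From 127 to 130 Mb, the stretch of MYC, PVT1 and CCDC26, the share was 19.0% (Wilson 14.2 to 24.8). From 120 to 127 Mb it was 28.4% (24.7 to 32.3), from 130 to 135 Mb 25.8% (21.5 to 30.6) and from 135 to 140 Mb 23.3% (17.8 to 30.03). Just outside, the 5 Mb below the segment lost 28.7% and the 5 Mb above it 13.2%. The step at 125 Mb, with SQLE, WASHC5, NSMCE2 and TRIB1, was the most one-sided, with 41 places lost and 1 gained.

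Lost places came mostly from the weak end of the control list. The shScramble list was split into 4 bins of equal size. Of the best bin by p, 0 of 312 in the segment were lost with both, an exact 0 whose Wilson upper bound is 1.22%, against 1.54% in the rest of the genome. In bins 2 to 4 the share was 10.9%, 22.4% and 32.6% in the segment, against 11.1%, 27.1% and 24.7% in the rest. The segment's excess therefore lay in the last bin alone by p, and 38.5% of the segment's shScramble regions were in that bin. In bins by the second value the share was 3.49%, 9.20%, 18.9% and 38.9% in the segment, against 5.34%, 9.55%, 17.2% and 32.3% in the rest, again with the largest excess in the last bin. Of 193 control places of the segment with an authors' p of at most 0.05, 96.9% were kept with shCHD4#1 and 96.4% with shCHD4#2, against 97.0% with shCHD4#1 and 96.7% with shCHD4#2 elsewhere. The median lost place had its shScramble region at 82.0% of the list, where 0 is best, against 69.2% for lost places elsewhere, and was 1970 bp wide.

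**Figure D4:**
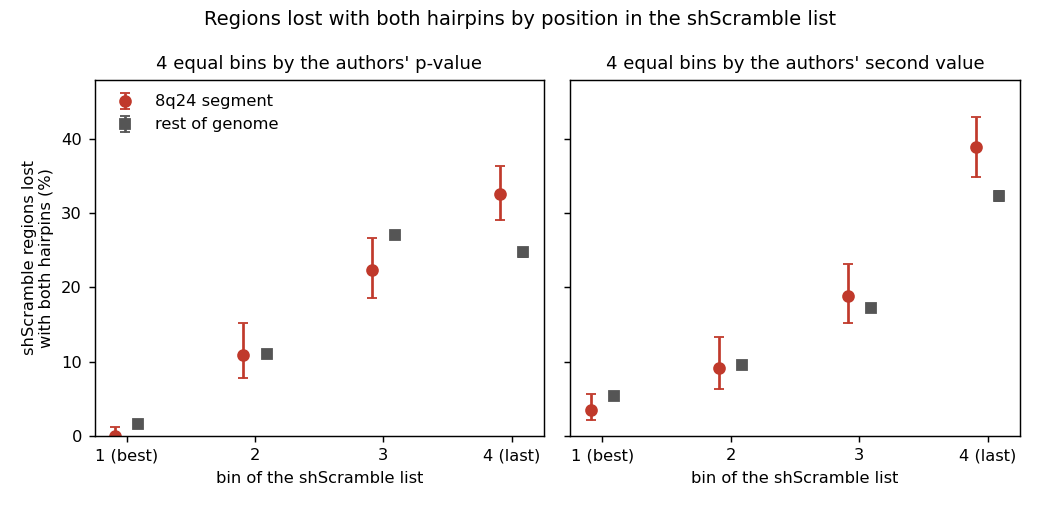
Share of shScramble regions lost with both hairpins in each of 4 equal bins of the shScramble list, ordered by the authors' p-value (left) or second value (right), in the segment (circles) and the rest of the genome (squares), with 95% Wilson intervals. The segment lies above the rest in the last bin of each order (32.6% against 24.7%, and 38.9% against 32.3%) and below it in bins 1 and 2.

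The best-ranked lost and gained places were chosen by p. The first lies in NSMCE2 (125143061 to 125144860), at 25.3% of the shScramble list. The others lie 9453 bp from DEPTOR, which encodes an inhibitor of mTOR (120060371 to 120061600), 7304 bp from ST3GAL1 (133579191 to 133579960), in LINC02055 (136715511 to 136717520) and in ZHX2 (122929591 to 122930730), the last of them at 30.5% of the list. The best-ranked place gained with both lies in SNTB1 (120604494 to 120606208), at 1.80% of the shCHD4#1 list and 3.88% of the shCHD4#2 list. A gained place 194186 bp from KHDRBS3 (135850702 to 135854271) was at 0.430% of the shCHD4#1 list and 10.9% of the shCHD4#2 list, and a gained place in SLA and TG (133086751 to 133088790) at 4.77% of the shCHD4#1 list and 11.6% of the shCHD4#2 list. A gained place in LOC401478 (137903031 to 137905630) was at 10.3% with shCHD4#1 and 14.5% with shCHD4#2, and one in HHLA1 (132096651 to 132098671) at 9.11% with shCHD4#1 and 15.5% with shCHD4#2. By the second value the gained place in SNTB1 was at 6.11% with shCHD4#1 and 9.71% with shCHD4#2, and the lost one in NSMCE2 at 46.5% of the shScramble list, while the lost place in LINC02055 was at 10.4% and the best-placed lost one of the segment at 2.11%. At an authors' p of at most 0.05 in every list that held them, 3 places of the segment were gained with both and 0 lost, against 299 gained and 66 lost in the rest of the genome. The segment had 193 control places at that threshold and the rest 10429, and 1915 and 128502 places in all. With shares that low, these counts do not set the segment apart.

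Few of the segment's regions lay at gene ends. Either end of a protein-coding gene lay within 1 kb of 4.14% of regions with shCHD4#1, 5.16% with shCHD4#2 and 5.14% with shScramble, against 17.3% with shCHD4#1, 22.7% with shCHD4#2 and 20.6% with shScramble in the rest of the genome. Outside all annotated genes lay 39.6% with shCHD4#1, 38.0% with shCHD4#2 and 37.1% with shScramble, against 29.0% with shCHD4#1, 26.7% with shCHD4#2 and 27.4% with shScramble elsewhere. The table used gives no strand, so either end of a gene can be its start. Of the 57 protein-coding genes, 51 had a covered end with shCHD4#1, 46 with shCHD4#2 and 48 with shScramble, and 42 in all 3 lists. Over the genome a covered end was found at most genes as well. Of 19974 protein-coding genes, 14192 had one with shCHD4#1, 13284 with shCHD4#2 and 12552 with shScramble, and 11408 in all 3 lists. Of the places with a shScramble region, 15.5% (11 of 71) at gene ends were lost with both, 25.7% inside protein-coding genes, 22.5% inside other genes and 28.4% outside genes. The Wilson interval at gene ends was 8.88 to 25.7. Elsewhere in the genome the lost share was 7.37% at gene ends and 21.8% inside protein-coding genes. It was 19.2% inside other genes and 23.4% outside genes there, so the lowest and highest classes were the same.

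Of the 57 protein-coding genes, 20 (35.1%) had fewer regions with both hairpins than with shScramble, against 13% of all 19974 protein-coding genes. More regions with both were found at 11 (19.3%), against 25.2% of all. Longer and more densely listed genes have more regions to lose, and neighbouring genes share regions, so these shares are a description. The segment was also chosen by its lost share on these lists. Of 38 genes listed by role, 16 (42.1%) had fewer with both and 8 (21.1%) had more. Each group by role below holds at most 8 genes. Its count is to be read beside the 35.1% of the segment's genes and the 13% of all genes. Lost places at a gene are to be read beside the lost share of control places, 25.4% in the segment and 19.1% over the genome. ASAP1 and ZFAT were near the segment's share. A lower number of regions need not mean fewer bases covered, nor a higher number more bases. The counts of each gene are drawn in the plot of listed genes.

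**Figure D5:**
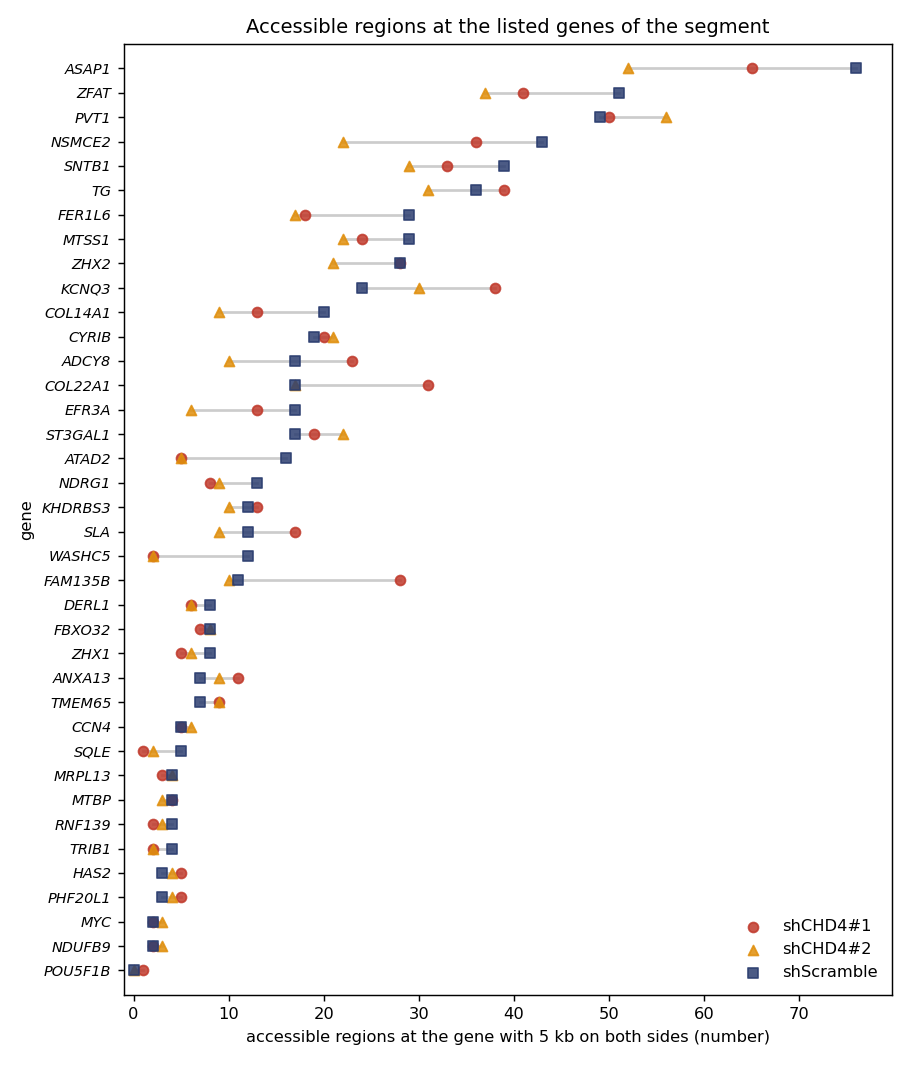
Number of accessible regions at each of the 38 listed genes, counted with 5 kb on both sides, with shCHD4#1 (circles), shCHD4#2 (triangles) and shScramble (squares); grey lines join the values of a gene. ASAP1 has the highest count in every list except that of shCHD4#2, where PVT1 does, and ATAD2 and WASHC5 have their shScramble squares far to the right of both hairpin marks.

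Genes of genome maintenance were fewer with both at 2 of 3. ATAD2, a bromodomain ATPase that binds acetylated chromatin, had 5 regions with shCHD4#1, 5 with shCHD4#2 and 16 with shScramble. Of its 14 control places 10 were lost with both, with a median width of 1700 bp and a median position at 87.0% of the shScramble list. NSMCE2, the SUMO ligase subunit of SMC5/6, had 36 with shCHD4#1, 22 with shCHD4#2 and 43 with shScramble, and lost 12 of 36 control places. At an authors' p of at most 0.05 its direction turned, with 7 regions with shCHD4#1, 4 with shCHD4#2 and 3 with shScramble. MTBP, which encodes an MDM2-binding protein with a role in the start of replication, had 4 with shCHD4#1, 3 with shCHD4#2 and 4 with shScramble. Each of these 3 genes had a covered end in every list, and neither hairpin list covered the lower end of ATAD2, which the shScramble list did.

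Of the 4 genes listed with protein turnover, 3 were fewer with both. WASHC5, which encodes strumpellin, a subunit of the endosomal WASH complex, had 2 regions with shCHD4#1, 2 with shCHD4#2 and 12 with shScramble. Of its 10 control places 8 were lost with both, and its 2 shared places stayed in the lists. The lost places had a median position at 84.7% of the shScramble list. At an authors' p of at most 0.05, WASHC5 had 1 region in each list, and also among the best 20000. DERL1, which takes part in degradation at the endoplasmic reticulum, had 6 with shCHD4#1, 6 with shCHD4#2 and 8 with shScramble. The bases covered there were 18.9 kb with shCHD4#1, 14.7 kb with shCHD4#2 and 15.4 kb with shScramble. RNF139 had 2 with shCHD4#1, 3 with shCHD4#2 and 4 with shScramble, and both of its ends were covered in every list. Its covered bases were 12.4 kb with shCHD4#1, 12.7 kb with shCHD4#2 and 12.2 kb with shScramble. FBXO32, the ubiquitin ligase adaptor atrogin-1, had 7 with shCHD4#1, 8 with shCHD4#2 and 8 with shScramble. SQLE, which encodes the squalene epoxidase of sterol synthesis, lies next to WASHC5 and had 1 with shCHD4#1, 2 with shCHD4#2 and 5 with shScramble.

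Transcription regulators were fewer with both at 3 of 6. ZFAT, which encodes a zinc-finger factor with an AT-hook, had 41 regions with shCHD4#1, 37 with shCHD4#2 and 51 with shScramble, and lost 9 of 36 control places, but among the best 20000 regions of each list it had 15 with shCHD4#1, 9 with shCHD4#2 and 8 with shScramble. ZHX1, the homologue of ZHX2, had 5 with shCHD4#1, 6 with shCHD4#2 and 8 with shScramble, and TRIB1 had 2 with shCHD4#1, 2 with shCHD4#2 and 4 with shScramble. At TRIB1 more bases were covered with each hairpin, 11.2 kb with shCHD4#1 and 14.0 kb with shCHD4#2, than the 10.4 kb with shScramble. ZHX2 had 28 with shCHD4#1, 21 with shCHD4#2 and 28 with shScramble. PHF20L1, a Tudor-domain reader of lysine methylation, was the one with more in both hairpin lists, with 5 regions with shCHD4#1, 4 with shCHD4#2 and 3 with shScramble.

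Genes of the cytoskeleton and membrane were fewer with both at 4 of 7 and more with both at 2. ASAP1, an Arf GTPase-activating protein of focal adhesions, had the most regions of the segment's protein-coding genes, 65 with shCHD4#1, 52 with shCHD4#2 and 76 with shScramble, and lost 15 of 60 control places. At an authors' p of at most 0.05 it had more with both hairpins, 9 with shCHD4#1, 7 with shCHD4#2 and 4 with shScramble. SNTB1, a syntrophin, had 33 with shCHD4#1, 29 with shCHD4#2 and 39 with shScramble, and at that threshold 3 with shCHD4#1, 3 with shCHD4#2 and 1 with shScramble. MTSS1, which bends membranes and binds actin, had 24 with shCHD4#1, 22 with shCHD4#2 and 29 with shScramble. EFR3A, a membrane anchor of the phosphatidylinositol 4-kinase complex, had 13 with shCHD4#1, 6 with shCHD4#2 and 17 with shScramble. Against these, KCNQ3, a potassium channel subunit of the neuronal M-current, had 38 with shCHD4#1, 30 with shCHD4#2 and 24 with shScramble. It had 7 places gained with both, the most of these named genes, and 6 lost. CYRIB, an inhibitor of Rac1 signalling to actin, had 20 with shCHD4#1, 21 with shCHD4#2 and 19 with shScramble. ADCY8, an adenylyl cyclase, had 23 with shCHD4#1, 10 with shCHD4#2 and 17 with shScramble.

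The matrix genes went different ways. COL14A1, which encodes collagen XIV, had 13 regions with shCHD4#1, 9 with shCHD4#2 and 20 with shScramble, and lost 8 of 16 control places. HAS2, the hyaluronan synthase, had 5 with shCHD4#1, 4 with shCHD4#2 and 3 with shScramble. COL22A1, which encodes collagen XXII, had 31 with shCHD4#1, 17 with shCHD4#2 and 17 with shScramble, and CCN4 (WISP1), a WNT-responsive matricellular protein, had 5 with shCHD4#1, 6 with shCHD4#2 and 5 with shScramble.

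Among the 8 genes of signalling and RNA, 2 were fewer with both and 2 more. FER1L6, of the ferlin family, had 18 regions with shCHD4#1, 17 with shCHD4#2 and 29 with shScramble, and its end covered with shScramble was covered with neither hairpin. NDRG1, a stress-responsive gene, had 8 with shCHD4#1, 9 with shCHD4#2 and 13 with shScramble. ST3GAL1, a sialyltransferase, had 19 with shCHD4#1, 22 with shCHD4#2 and 17 with shScramble, with 3 places gained with both and none lost. ANXA13, an annexin, had 11 with shCHD4#1, 9 with shCHD4#2 and 7 with shScramble. FAM135B had 28 with shCHD4#1, 10 with shCHD4#2 and 11 with shScramble. TG, which encodes thyroglobulin, had 39 with shCHD4#1, 31 with shCHD4#2 and 36 with shScramble. Of the 3 mitochondrial genes, TMEM65, which encodes an inner-membrane protein, had 9 with shCHD4#1, 9 with shCHD4#2 and 7 with shScramble, and MRPL13 and NDUFB9 had at least 1 covered end in every list. At TMEM65 fewer bases were covered with each hairpin, 21.5 kb with shCHD4#1 and 19.6 kb with shCHD4#2, than the 24.2 kb with shScramble. Both hairpin lists covered the lower end of MRPL13, which the shScramble list did not, and neither covered the upper end of NDUFB9, which the shScramble list did.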

How the data were processed

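ATAC-seq of 9 SKNMC samples in 3 groups was analysed from the region lists that the authors deposited, 1 per group. Per the labels' protocols, 100000 SKNMC cells were mixed with 100 Drosophila S2 cells per sample. Per the submitters' processing notes, the tools were BWA, deepTools 3.2.1, FastQC 0.11.7, SAMtools 1.9 and Trimmomatic 0.36, and the builds GRCh38 and dm6. The caller of the regions, a Tn5 shift and spike-in scaling were not given in the sources used here. The lists carry the name of ChIP-R, which combines peak lists of replicates. Each deposited region has a score, a second value without a stated unit, likewise treated as a score, and the authors' p-value and q-value. Within each list these served to order or filter. Depth, and with it precision, is unknown, and a deeper library would list more weak regions.

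Regions on chromosomes 1 to 22 and X were kept. Regions sharing at least 1 bp were merged into places. Genes came from the RefSeq table for the GRCh38 patch release, counted with 5 kb on both sides, with gene ends in place of start sites. Members, gene lists and the rule for named genes (MYC, PVT1, their neighbours, the most regions, the largest drop, more with both, the best-ranked regions and places, extreme steps) were chosen with earlier results of these data known. Other listed genes are given for completeness of their group. Merging and counting were tested on simulated data, where 5000 of 5000 places and 2000 of 2000 counts were recovered (Python 3.11.15, pandas 2.3.3, SciPy 1.17.1). No sequence is shown.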

Additional observations from a re-analysis of the deposited data

How the results depend on the processing

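The counts depend on how far down the lists are read. At an authors' p of at most 0.05 the segment held 320 regions with shCHD4#1, 173 with shCHD4#2 and 204 with shScramble, and among the best 20000 of each list 397 with shCHD4#1, 272 with shCHD4#2 and 295 with shScramble. At equal list length shCHD4#1 had 1109, and its log2 ratio to shScramble reversed to -0.37 (0.11 as reported). Equal length left out the segment's tied block with shCHD4#1 and shScramble and kept it with shCHD4#2. The lists were thus unlike there, also for the shares lost and gained. The cause of the reversal was not tested. The lost share of the segment was 19.2% among the best 20000, 34.5% at equal length, 30.1% with an overlap of 50% and 22.4% with neighbours of 1 second value joined. Its difference from the rest of the genome, 6.45 percentage points as reported, was 0.563 at p of at most 0.05, reversed to -9.44 among the best 20000, and was 4.002 with each region counted by itself. In bins 1 to 3 of the shScramble list by p it was -1.54, -0.13 and -4.70, and in those by the second value -1.85, -0.35 and 1.69; the cause was not tested. The gained share was 12.9% and 13.7% at the first and second of these limits, with differences of -0.22 and 2.20 points (-4.22 as reported), and the difference was -3.01 at equal length. The share at gene ends was 8.61% and 7.46% at those limits. By the second value, the best 100 regions included 21 of the segment with shCHD4#2 and 32 with shScramble, against 12 with shCHD4#2 and 8 with shScramble by p.

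Of the 10 named loci with the largest drop, ATAD2 alone had fewer regions with both hairpins under all 6 alternatives, and NSMCE2, ASAP1, SNTB1 and ZFAT had more with both under at least 1. Of the 8 with more regions with both, none kept that under all 6. Without the width limit, PVT1 no longer had more regions with both. No paired analysis was possible because each group has 1 list, and for the same reason no replicate was left out. The joined stretches, the order by the second value and the rest of chromosome 8 as a comparison were added after the data were seen.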
